A study of Mus musculus with 24 samples.

Results

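The comparison concerns the left ventricle of non-diabetic mice, with and without a cardiac transgene for the glucose transporter GLUT4. It sets 6 samples titled mG4H_VEH against 6 titled CON_VEH, chosen by title, and these are 12 of the 24 samples of the series. mG4H mice carried GLUT4 under an inducible system limited to cardiomyocytes, and CON is the other genotype of the study, whose alleles are not given in the sources used here. All 12 mice were males and had received injections of citrate buffer (VEH) on 5 consecutive days, the vehicle that the other 12 mice (CON_STZ and mG4H_STZ, 6 each) received together with streptozotocin (STZ, 55 mg per kg), a toxin of pancreatic beta cells. Per the design text, induction of the transgene began 2 weeks after the injections and lasted 2 weeks. The inducing agent, the promoter, the strain and the age are not given in the sources used here. Some mice had brothers in other groups, without a record of which. Each ventricle gave 1 array, and the right ventricle had been removed.

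GLUT4, encoded by Slc2a4, is the insulin-responsive glucose carrier of muscle and fat. It rests in vesicles inside the cell and moves to the surface when insulin signals, whereas GLUT1, encoded by Slc2a1, carries glucose without that signal. The adult heart burns mainly fatty acids, and also uses ketone bodies, lactate, glucose and the branched-chain amino acids leucine, isoleucine and valine. Glucose 6-phosphate activates the Mondo transcription factors (MondoA, encoded by Mlxip, and ChREBP, encoded by Mlxipl), whose best known targets are the arrestin-like proteins Txnip and Arrdc4. Surplus acetyl-CoA can be carboxylated to malonyl-CoA, which inhibits entry of fatty acids into mitochondria.

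Values are log2 signals relative to the 75th percentile of each array, so 0 is that percentile and a step of 1 is a doubling. A probe reads its own target with its own efficiency, so levels are compared between groups and never between genes. Between 58.5% and 76.3% of the spots of an array passed the background mark, the 75th percentile of the signal was between 369.8 and 583.2, and 0 spots were saturated. Among the 12 vehicle arrays the first principal component held 50.3% of the variance, of which 81.1% lay between the 4 slides and 0.5% between the genotypes. Each slide held vehicle arrays of both genotypes. The p-values measure the spread between mice, and the number of arrays limits the precision.

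A few vehicle arrays stood apart in markers of other cell types. The ventricular preparation carried strong cardiomyocyte signal in both groups. The summed linear signal of 13 cardiomyocyte markers was 4408 to 5989 times the 75th percentile in CON VEH and 4329 to 5732 times in mG4H VEH. The atrial myosin light chain Myl4 was at 5.28 and 5.72 in mG4H VEH replicates 5 and 6 and between 1.53 and 2.31 in the other 10 vehicle arrays. Myl7, its atrial partner chain, was at 0.89 and 1.05 in the same arrays and at -2.72 or below in the others. The summed signal of 8 atrial markers was accordingly 38.64 to 52.86 in CON VEH and 24.86 to 118.9 in mG4H VEH. The mesothelial gene Msln was at 0.85 and 1.5 in CON VEH replicates 3 and 6, at 0.57 in mG4H VEH replicate 3, and at -0.73 or below in the other 9. Upk3b, another mesothelial marker, had the same 3 arrays highest, at -1.65, -0.78 and -1.97, and Wt1 stayed between 1.56 and 2.03 throughout. None of the 8 atrial and 9 mesothelial markers passed the test between genotypes. The mesothelial markers had a median difference of -0.942, with 8 lower and 1 higher in mG4H. The atrial markers had a median difference of 0.684, with 6 higher and 2 lower. Across 23 alternatives of scaling, blocks and left-out arrays, 7 to 9 mesothelial markers were lower and 3 to 7 atrial markers were higher. The part of these tissues in the results was not tested, and the counts without those arrays are given below.

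The single Slc2a4 probe did not register the transgene. Its level was 6.51, 6.76 and 6.93 (lowest, median, highest of 6) in CON VEH and 6.33, 6.57 and 6.61 in mG4H VEH, so the ranges overlapped. The difference was -0.20 (log2, SE 0.16), with adjusted p = 1 by limma over all 24 arrays and 0.70 in the fit of the 12 vehicle arrays alone. The probe lies on the minus strand of chromosome 11 between 69756073 and 69756132 (mm9). The sources used here do not say which part of Slc2a4 the transgene contains, so this probe may lie outside it and checks neither the genotype nor its induction.

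In all, 28237 genes were tested, each by its brightest probe. With the spread estimated from all 24 arrays, 23 genes passed an adjusted p of 0.05 (0.0815% of those tested), of which 10 were higher (0.0354%) and 13 lower (0.0460%) in mG4H. With the 12 vehicle arrays alone, 100 genes passed (0.354%), 31 higher (0.110%) and 69 lower (0.244%). The 24-array fit judges the vehicle hearts against a spread that includes the diabetic ones. Each SE is of that fit unless stated otherwise. The median residual SD was 0.237 among vehicle arrays and 0.381 among STZ arrays, and the 100 genes had medians of 0.155 and 0.381. The fits shared 20 calls and together named 103 genes, 32 higher and 71 lower. The changes were mostly small, since 20 of the 100 and 11 of the 23 were at least 2-fold. The ranges of the 2 groups did not overlap for 100 of the 100 and 22 of the 23 genes, against 1.02% of all genes.

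These counts moved with single arrays. In the 24-array fit they were 13 without CON VEH replicate 3 or without replicate 4, 14 without mG4H VEH replicate 4 or 5, and 15 without replicate 6. Of the 23 genes, 13 passed in all 12 such fits. In the 12-array fit 135 genes passed without mG4H VEH replicate 3, and 48 to 65 without CON VEH replicates 1, 3 or 4 or mG4H VEH replicates 1, 2, 4, 5 or 6. Of the 100 genes, 43 passed in all 12 of those fits. Leaving out both arrays with high atrial markers left 9 and 18 calls, all of them among the 23 and the 100. Leaving out the 3 arrays with high mesothelial markers left 8 and 28 calls, of which 8 and 26 were among them. In the plot of effect against p-value the calls form a thin fringe on both sides of an otherwise narrow distribution.

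**Figure D1:**
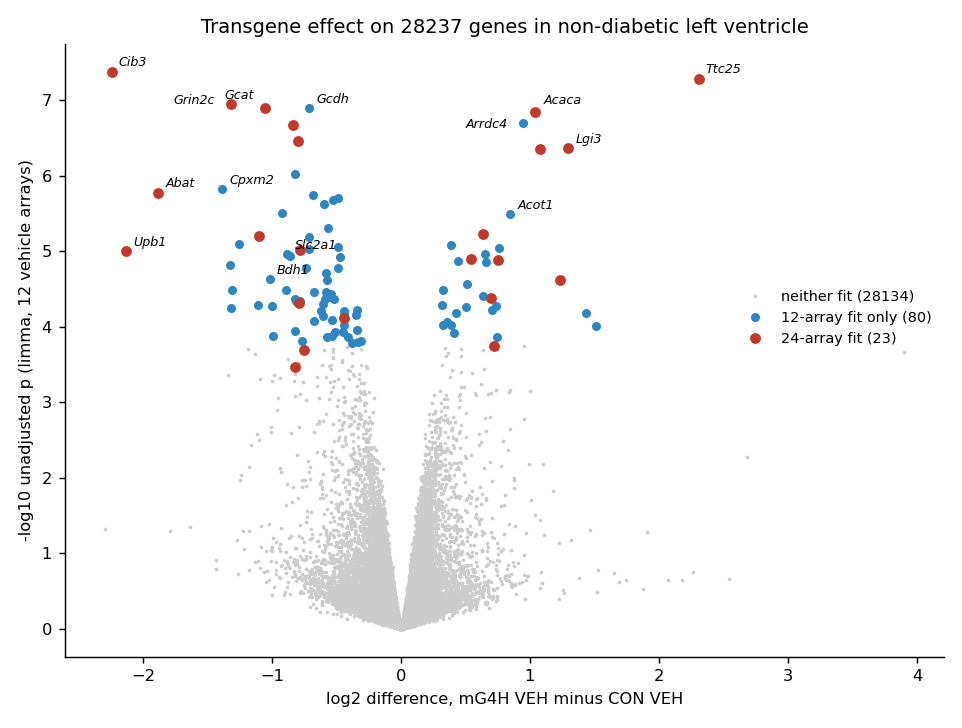
Log2 difference between mG4H VEH and CON VEH (x axis) against -log10 of the unadjusted p of limma on the 12 vehicle arrays (y axis) for 28237 genes, 1 point per gene, with called genes coloured. Ttc25 lies farthest right of the called genes at 2.31 and Cib3 farthest left at -2.24. More of the genes called in either fit lie on the lower side (71) than on the higher side (32).

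Genes that respond to glucose were among those that rose, though few in number. Of 12 Mondo factors and targets, 1 passed in the 24-array fit (Klf10) and another in the 12-array fit (Arrdc4), both higher. Over all genes 0.0354% rose in the 24-array fit and 0.110% in the 12-array fit. In all, 8 of the 12 Mondo genes were higher and 4 lower, with a median difference of 0.19, against -0.00837 over all genes. Arrdc4, an arrestin-domain protein that with Txnip restrains glucose uptake, was at -0.16, 0.05 and 0.17 (lowest, median, highest) in CON VEH and at 0.78, 0.98 and 1.19 in mG4H VEH. Every transgenic heart was above every control heart. The difference was 0.95 (SE 0.26 in the 24-array fit), a 1.93-fold rise, with limma adjusted p = 0.000753 in the 12-array fit and 0.416 in the 24-array fit. A further Arrdc4 probe gave 0.43 and did not pass (adjusted p = 0.132, 12-array fit, per probe). Klf10, a zinc finger repressor also induced by TGF-beta, was at 2.37, 2.51 and 2.87 in CON VEH and at 2.84, 3.40 and 3.51 in mG4H VEH. It is the only gene of the 23 whose groups overlapped, by the lowest transgenic heart. Its difference was 0.72 (SE 0.14), with limma adjusted p = 0.0321 in the 24-array fit and 0.0502 in the 12-array fit, and it passed in 3 of the 12 fits of the former kind that left out 1 array. Arrdc4 passed in the 12-array fit without the arrays of high atrial or of high mesothelial markers (adjusted p = 0.0148 and 0.0221), and Klf10 in neither fit. Txnip itself differed by 0.43 with adjusted p = 1 and 0.84, and the factors Mlxip, Mlxipl and Mlx by 0.09, -0.04 and -0.17, none of them past the threshold.

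The promoters of Arrdc4 and Txnip show the kind of letters that Mondo factors are known to bind, and are printed for that reason, from RefSeq (GRCm38.p6), 250 bases before to 50 after the start of transcription, 5′ to 3′ on the strand of the gene. In Arrdc4 (chr7:68749189-68749488, minus strand) the capitals mark an E-box, CACGTG, at -193 to -188. In Txnip (chr3:96557707-96558006, plus strand) they mark a carbohydrate response element at -85 to -69.
Arrdc4: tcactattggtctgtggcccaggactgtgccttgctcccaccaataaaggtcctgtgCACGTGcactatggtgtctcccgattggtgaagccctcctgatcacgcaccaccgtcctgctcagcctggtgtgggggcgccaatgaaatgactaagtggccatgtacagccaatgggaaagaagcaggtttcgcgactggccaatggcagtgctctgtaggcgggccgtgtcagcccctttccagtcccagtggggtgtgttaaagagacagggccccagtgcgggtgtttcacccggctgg
Txnip: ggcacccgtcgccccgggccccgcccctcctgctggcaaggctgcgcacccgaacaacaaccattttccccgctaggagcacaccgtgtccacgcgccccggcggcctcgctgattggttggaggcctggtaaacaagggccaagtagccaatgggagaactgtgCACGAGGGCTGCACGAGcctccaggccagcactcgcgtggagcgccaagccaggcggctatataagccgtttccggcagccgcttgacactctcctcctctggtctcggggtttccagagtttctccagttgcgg

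The E-box letters CACGTG read the same on both strands and occur in 2349 of 32851 promoter windows of this length (7.15%). Of the 103 called genes 64 have a window in the table, and 10 of those hold an E-box in their first listed window (15.6%), among them Arrdc4, Gcat, Pcx and Acot4. The carbohydrate response element was searched on both strands as CACGNG and CNCGNG separated by 5 bases, which can overlap an E-box, and occurs in 120 windows (0.365%). It was found in 0 of the 64, and in Txnip alone of the 11 Mondo genes with a window. Klf10, Ttc25, Abat, Lgi3 and Slc2a4 are not in the promoter table used here. A match is a run of letters and not a measured site of binding.

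Acaca, the acetyl-CoA carboxylase that makes malonyl-CoA for fatty acid synthesis, was the clearest metabolic gene to rise. It was at 1.37, 1.49 and 1.64 in CON VEH and at 2.24, 2.54 and 2.81 in mG4H VEH. The groups were separated by more than the range within either one. The difference was 1.04 (SE 0.13), or 2.06-fold, with limma adjusted p = 0.000529 (24 arrays) and 0.000669 (12 arrays). A further Acaca probe, above background in 0 of 6 control and 5 of 6 transgenic hearts, was at least 1.42-fold higher in the latter (adjusted p = 0.0102, per probe; measured means -5.94 and -4.64), with the control mean taken at no less than the background mark of each array. The feature Gm5182 gave nearly the same values as Acaca (1.08, SE 0.13, adjusted p = 0.000442). It is a pseudogene of Acaca, so its signal may be that of Acaca and it is uncertain as a separate call. Acaca was the only one of 21 genes of fatty acid and malonyl-CoA synthesis to pass in either fit, and the list was otherwise even, with 11 higher and 10 lower and a median of 0.013. Acacb, which encodes the mitochondrial-surface carboxylase of heart, differed by 0.12, Acly by 0.17, Fasn by 0.22 and Mlycd, the malonyl-CoA decarboxylase, by 0.17, none past the threshold.

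Aacs and Impa2 rose in both fits, and Gpd1 and Slc37a4 in the 12-array fit. Aacs, the cytosolic acetoacetyl-CoA synthetase that directs acetoacetate to lipid synthesis, was at 0.91, 1.12 and 1.35 in CON VEH and at 1.64, 1.76 and 2.13 in mG4H VEH, without overlap. It rose by 0.70 (SE 0.12, adjusted p = 0.0214 and 0.0208 by limma in the 24- and 12-array fits). Gpd1, which links glycolysis to glycerol 3-phosphate, rose by 0.51 in the 12-array fit (adjusted p = 0.0162), from 4.48 to 4.78 in controls to 4.93 to 5.26. Slc37a4, the glucose 6-phosphate carrier of the endoplasmic reticulum, rose by 0.74 in the 12-array fit (adjusted p = 0.0224). Impa2, an inositol monophosphatase, rose by 0.75 (SE 0.14, adjusted p = 0.0321 and 0.00995). Its values ran from 1.86 to 2.42 in controls and from 2.69 to 3.13 in transgenic hearts. With 1 array left out of the 24-array fit Impa2 passed in 2 of 12 fits and Aacs in 7. With 1 array left out of the 12-array fit Impa2 passed in 12 of 12 fits, Gpd1 in 10, Aacs in 7 and Slc37a4 in 5. None of these 4 genes passed in either fit without the arrays of high atrial markers or without those of high mesothelial markers (adjusted p of 0.0599 to 0.175 in the 12-array fit).

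Ttc25 had the largest rise of all called genes. Its product docks the outer dynein arms of motile cilia. Ttc25 was at -4.61, -4.51 and -3.93 in CON VEH and at -2.61, -2.17 and -1.41 in mG4H VEH. The difference was 2.31 (SE 0.21), or 4.95-fold, with limma adjusted p = 4.48e-06 and 0.000669 in the 24- and 12-array fits. It also stood clear in the diabetic hearts, at -4.43, -4.15 and -3.34 in CON STZ and -2.80, -2.40 and -1.73 in mG4H STZ. A further Ttc25 probe was well above background in 0 of 6 CON VEH and 6 of 6 mG4H VEH hearts, and was at least 2.09-fold higher in the latter (adjusted p = 0.00126, per probe; measured means -6.82 and -4.08). That bound sets the transgenic mean against the lowest signal marked as above background on each control array.

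The neighbours of Ttc25 on chromosome 11 did not pass. Of 41 other features within 500 kb, 0 were called in either fit, and their differences ran from -0.93 for Krt19 to 0.45 for Gm14206. The nearest, Cnp (27.4 kb away) and Dnajc7 (29 kb), differed by -0.01 and 0.00, and Acly by 0.17. Krt19 is also in the mesothelial marker list. Chromosome 11 held 5 of the 23 calls among 2014 genes tested there (0.248%, against 0.0815% of all genes). Besides Ttc25 they were Acaca, Grin2c, Dcxr and the transcript next to Dcxr, whose probe lies on the same strand and may read the same gene. In the 12-array fit the chromosome held 7 of the 100 calls (0.348%, against 0.354% of all genes).

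**Figure D2:**
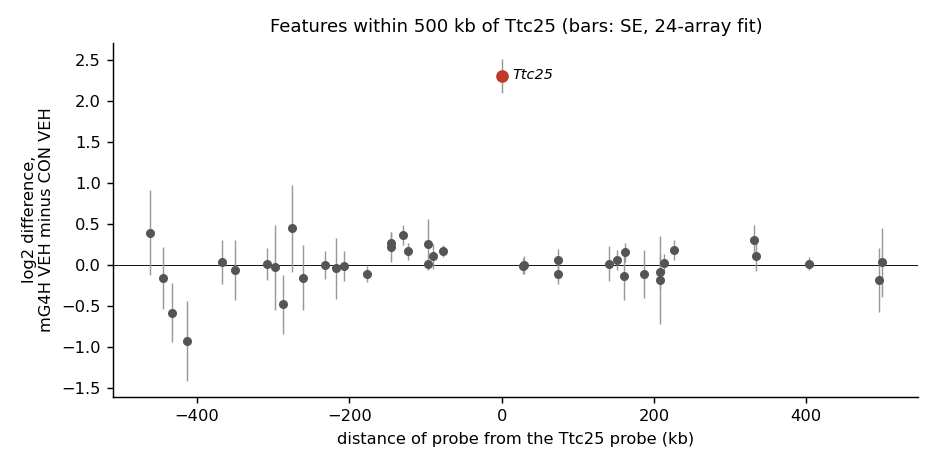
Log2 difference between mG4H VEH and CON VEH (y axis, bars SE of the 24-array fit) of each feature within 500 kb of the Ttc25 probe, against its distance from that probe in kb (x axis). Ttc25 stands alone at 2.31 and the other 41 features lie between -0.93 and 0.45.

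Further genes that rose have varied roles. Lgi3, a secreted leucine-rich repeat protein, was at -2.75, -2.58 and -2.31 in CON VEH and at -1.69, -1.18 and -0.96 in mG4H VEH. It rose by 1.30 (SE 0.18), or 2.46-fold, with adjusted p = 0.000933 (limma, 24 arrays) and 0.00113 (12 arrays). Ralgapa2, a GTPase-activating protein for the Ral proteins that act in vesicle exocytosis, rose by 0.63 (SE 0.11, adjusted p = 0.0103 and 0.00756). Pth1r, the receptor for parathyroid hormone, rose by 0.55 (SE 0.10, adjusted p = 0.0243 and 0.00992). Dbi, the acyl-CoA binding protein, rose by 0.39 in the 12-array fit (adjusted p = 0.0318), and passed in 2 of the 12 fits without 1 array, where Pth1r, Ralgapa2 and Lgi3 passed in 12. With 1 array left out of the 24-array fit Pth1r passed in 4 of 12 fits, and Ralgapa2 and Lgi3 in 12. Without the arrays of high atrial markers, or of high mesothelial markers, Lgi3 passed in both fits, while Pth1r (adjusted p = 0.0859 and 0.128, 12-array fit) and Dbi (0.126 and 0.319) did not, and Ralgapa2 gave 0.0859 and 0.0396 by limma.

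Noncoding features also rose. An intergenic transcript on chromosome 6 rose by 1.23 (adjusted p = 0.0103 and 0.0149, limma) by its brightest probe, while its other 2 probes gave -0.07 and -0.16 and did not pass. On chromosome 17, Gm5091 rose by 1.44 in the 12-array fit (adjusted p = 0.0251). An intergenic feature whose probe begins 1 base before that of Gm5091 rose by 1.51 (adjusted p = 0.0318), and these are 1 locus. The other 2 probes of the intergenic feature gave 0.37 and 0.79 and did not pass. Gm5091 and the intergenic feature beside it each passed in 2 of the 12 fits without 1 array, and the chromosome 6 transcript in 11. None of the 3 passed in either fit without the arrays of high atrial markers, and without those of high mesothelial markers 1 did, the intergenic feature of chromosome 17 (adjusted p = 0.03, limma, 12 arrays).

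Of 26 genes for the breakdown of ketone bodies and branched-chain amino acids, all measured, 8 fell in the 12-array fit and 0 rose, and in the 24-array fit 1 fell (Abat). Over all genes 0.244% fell and 0.110% rose in the 12-array fit, and 0.0460% fell in the 24-array fit. In all, 24 of the 26 were lower in mG4H and the median difference was -0.312, against -0.00837 over all genes. This list, like the others, was chosen with earlier results of these data known, so its counts are a description. Across 23 alternatives of scaling, blocks and left-out arrays the number lower was 21 to 25 and the median -0.35 to -0.26. The number past the threshold in the 12-array fit was 2 without the arrays of high atrial markers (Ppm1k and Acadsb) and 2 without those of high mesothelial markers (Abat and Acadsb). Abat passed both times in the 24-array fit (adjusted p = 0.00276 and 2.74e-05, limma). With 1 array left out of the 12-array fit Abat, Ppm1k and Acadsb passed in 12 of 12 fits, Bdh1 in 11, Oxct1 in 7, Dbt in 6, Ivd in 4 and Bckdhb in 1.

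Bdh1 and Oxct1 carry out the opening steps of ketone body use in mitochondria. Bdh1, the beta-hydroxybutyrate dehydrogenase, was at 5.54, 5.8 and 5.99 in CON VEH and at 4.16, 4.84 and 5.06 in mG4H VEH, without overlap. It fell by 1.02, a 2.02-fold drop (limma adjusted p = 0.0149 with SE 0.15 in the 12-array fit, 0.378 with SE 0.28 in the 24-array fit). Its other 2 probes gave -1.23 and -1.11. Oxct1, the succinyl-CoA transferase, was at 7.08, 7.11 and 7.42 in controls and at 6.53, 6.6 and 6.81 in transgenic hearts. It fell by 0.55 (adjusted p = 0.0208, 12 arrays). Slc16a7, a carrier of ketone bodies and pyruvate, differed by -0.08 and did not pass.

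Besides Abat, the branched-chain genes that fell were Ppm1k, Bckdhb, Dbt, Acadsb and Ivd. Branched-chain ketoacid dehydrogenase is switched on by the phosphatase Ppm1k, which fell by 0.68 (adjusted p = 0.00343, limma, 12 arrays), from 3.0 to 3.34 in controls to 2.36 to 2.64. Its E1 beta subunit Bckdhb fell by 0.58 (adjusted p = 0.0406) and its E2 core Dbt by 0.52 (adjusted p = 0.0208). Bckdha, the E1 alpha subunit, gave -0.33 and Bckdk, the kinase that switches the complex off, -0.06, neither past the threshold. The dehydrogenases Acadsb (isoleucine) and Ivd (leucine) fell by 0.60 and 0.59 (adjusted p = 0.00375 and 0.0208). Acad8, the dehydrogenase of the valine branch, gave -0.01. The mitochondrial aminotransferase Bcat2 gave -0.53 with adjusted p = 0.06, and Bcat1, with 0.29, and Mcee, with 0.04, were the genes on the higher side.

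**Figure D3:**
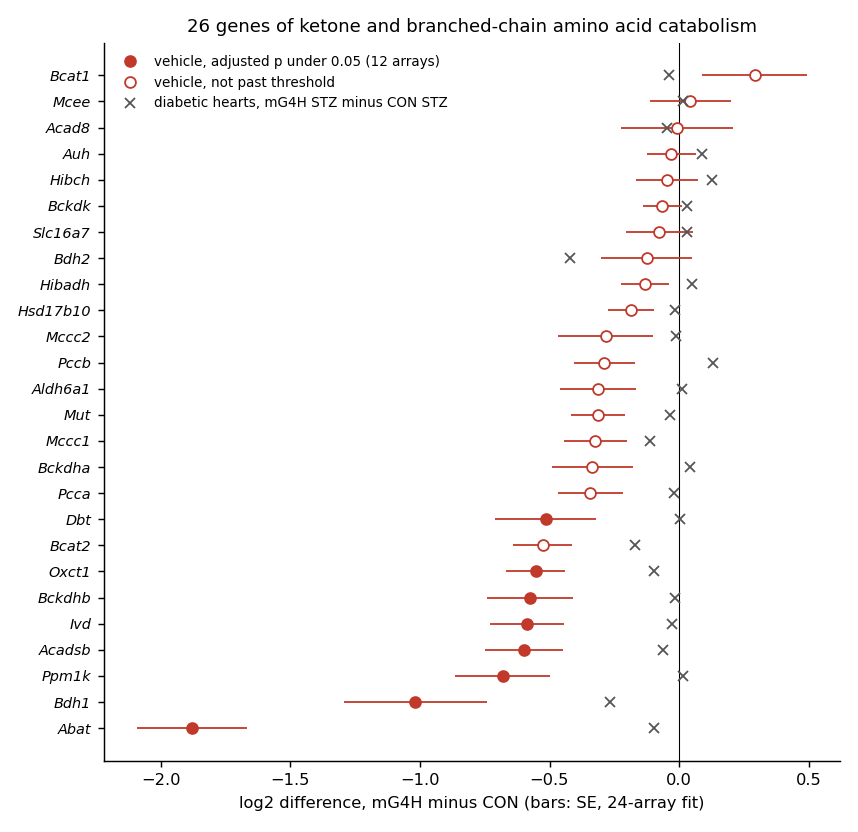
Log2 difference between mG4H and CON (x axis) for 26 genes that break down ketone bodies and branched-chain amino acids (y axis). Circles show vehicle hearts with the SE of the 24-array fit, filled where the 12-array fit passed (8 genes), and crosses show the diabetic hearts, whose median is -0.015 against -0.312 in vehicle hearts.

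Abat fell most in that list. This mitochondrial aminotransferase degrades GABA and beta-alanine and takes part in valine breakdown. It was at 3.87, 3.92 and 4.15 in CON VEH and at 1.73, 1.85 and 3.12 in mG4H VEH, the highest being replicate 3, so all 6 transgenic hearts lay below all 6 controls. The difference was -1.88 (SE 0.21), or 3.68-fold lower, with limma adjusted p = 9.54e-05 and 0.00341. Upb1, which makes beta-alanine in the last step of pyrimidine breakdown, fell by 2.13 (SE 0.29; adjusted p = 0.000933 and 0.00924), 4.38-fold. Its values were -0.74, -0.33 and 0.06 in controls and -2.91, -2.68 and -1.09 in transgenic hearts, again with replicate 3 highest.

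Some genes for the breakdown of other amino acids also fell. Their list was assembled after the values were seen and so describes the calls without supporting them. Of its 62 genes 52 were measured, and 3 fell in the 24-array fit and 10 in the 12-array fit, with 0 rising, 37 lower and 15 higher, and a median of -0.114. Over all genes 0.0460% fell in the 24-array fit and 0.244% in the 12-array fit. Gcat, which cleaves the product of threonine oxidation to glycine, was at 2.23, 2.45 and 2.71 in CON VEH and at 1.23, 1.48 and 1.53 in mG4H VEH. It fell by 1.06 (SE 0.14), 2.08-fold, with limma adjusted p = 0.00053 and 0.000669. Ccbl2, a kynurenine aminotransferase now named Kyat3, fell by 0.84 (adjusted p = 0.0214 and 0.000753). Cth, the cystathionine gamma-lyase, fell by 1.31 in the 12-array fit alone (adjusted p = 0.0187) and Gcdh, the glutaryl-CoA dehydrogenase of lysine and tryptophan breakdown, by 0.71 (adjusted p = 0.000669). Aldh4a1 (proline), Fah (tyrosine), Gnmt (glycine and methyl groups) and Mpst (cysteine) fell by 0.56, 0.58, 0.79 and 0.44. With 1 array left out of the 12-array fit Gcat, Upb1, Ccbl2, Gcdh and Aldh4a1 passed in 12 of 12 fits, Cth in 9, Gnmt in 8, Fah in 7 and Mpst in 2. With 1 array left out of the 24-array fit Gcat and Upb1 passed in 12 of 12 fits and Ccbl2 in 6. Gcat, Ccbl2 and Gcdh also passed in the 12-array fit without the arrays of high atrial markers and without those of high mesothelial markers, whereas Aldh4a1 gave adjusted p = 0.0859 and 0.0834 by limma and Fah, Gnmt and Mpst passed in neither. In the 12-array fit Upb1 (adjusted p = 0.0968 and 0.00274) and Cth (0.0859 and 0.0252) passed in the second of these 2 settings alone. Upb1 passed in both settings in the 24-array fit (adjusted p = 0.0254 and 0.000688, limma). Glud1 and Got2, which handle glutamate and aspartate, gave -0.24 and 0.19 and did not pass.

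Further genes that fell have varied roles. Cib3, a calcium-binding protein of the calcium and integrin binding family, had the largest fall of all called genes. It was at -1.43, -1.06 and -0.57 in CON VEH and at -3.72, -3.30 and -2.87 in mG4H VEH. The difference was -2.24 (SE 0.23), 4.73-fold lower, with adjusted p = 4.1e-05 and 0.000669 (limma, 24 and 12 arrays). Grin2c, a subunit of the NMDA glutamate receptor, was at -1.61, -1.38 and -1.14 in controls and at -2.96, -2.76 and -2.41 in transgenic hearts. It fell by 1.32 (SE 0.22), 2.49-fold, with adjusted p = 0.0103 and 0.000669. Dcxr, the reductase of dicarbonyls and L-xylulose, fell by 0.78 (adjusted p = 0.0058 and 0.00917). A transcript whose probe lies beside it on the same strand, and which may be the same gene, fell by 0.80. Cyb5, now Cyb5a and encoding cytochrome b5, fell by 0.44 (adjusted p = 0.0277 and 0.0272), and Cdh16, the kidney cadherin, by 0.82 in the 24-array fit (adjusted p = 0.0183). Gm9961 and the features LOC640020 and LOC100045752 fell by 0.79, 1.1 and 0.75. In the 24-array fit with 1 array left out, Cib3, Grin2c, Dcxr and LOC640020 passed in 12 of 12 fits, Cdh16 in 7, Gm9961 in 5, the transcript beside Dcxr and LOC100045752 in 4 and Cyb5 in 2. In that fit without the arrays of high atrial markers, and without those of high mesothelial markers, Cib3 passed both times, LOC640020 gave adjusted p = 0.0132 and 0.0808, Grin2c 0.162 and 0.136 and Dcxr 0.0745 and 0.0583 by limma, and the others did not pass. Grin2c passed both times in the 12-array fit.

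In the 12-array fit Cpxm2, of the carboxypeptidase X family, fell by 1.38 (adjusted p = 0.0033), and Slc5a11, a sodium-coupled carrier of inositol and glucose, by 1.32 (adjusted p = 0.0231). Pcx, the pyruvate carboxylase that refills the TCA cycle, fell by 0.71 (adjusted p = 0.00756) and was the 1 gene of 21 in the TCA list to pass. The conjugating enzymes Gstm2 and Gstm7 fell by 0.60 and 0.53. Cpxm2 and Pcx passed in 12 of 12 fits without 1 array, Gstm2 in 5, and Slc5a11 and Gstm7 in 4. Without the arrays of high atrial markers, and without those of high mesothelial markers, Pcx gave adjusted p = 0.0859 and 0.0834 and Cpxm2 0.0148 and 0.076 by limma, and the other 3 did not pass.

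GLUT1 was lower in the transgenic hearts. Slc2a1 was at 2.06, 2.32 and 2.59 in CON VEH and at 1.22, 1.49 and 1.82 in mG4H VEH, without overlap. It fell by 0.88, 1.84-fold, in the 12-array fit (SE 0.12, limma adjusted p = 0.00933), while the 24-array fit gave SE 0.36 and adjusted p = 1. It passed in 12 of 12 fits of the vehicle arrays without 1 array, but not without the arrays of high atrial markers (adjusted p = 0.0961) or of high mesothelial markers (0.0503). It was the only one of 30 genes of glucose uptake and glycolysis to pass, and 19 of them were higher and 11 lower with a median of 0.032. Hk2 gave -0.23, Pfkm 0.02, Gapdh 0.13, Ldha 0.05 and Pfkfb3, which makes an activator of phosphofructokinase, 0.49, none past the threshold.

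PPAR alpha is a fatty acid-sensing receptor of the heart. Of 23 of its targets outside beta-oxidation 4 rose in the 12-array fit and 0 fell, while 0 passed in the 24-array fit. Over all genes 0.110% rose and 0.244% fell in the 12-array fit. In all, 16 of the 23 targets were higher and 7 lower, with a median of 0.177 (0.15 to 0.306 across 23 alternatives). Acot1, a cytosolic thioesterase that frees fatty acids from CoA, was at 2.93, 3.27 and 3.6 in CON VEH and at 4.01, 4.08 and 4.30 in mG4H VEH. It rose by 0.85, 1.80-fold, with adjusted p = 0.00457 (limma, 12 arrays, SE 0.10) and 0.58 (24 arrays, SE 0.25). Its neighbour on chromosome 12, the peroxisomal thioesterase Acot4, rose by 0.39 (adjusted p = 0.00903), and the thioesterases share sequence, so signal between them may be shared. Cidea, a lipid droplet protein, rose by 0.43 (adjusted p = 0.0251) and Pex11a, which divides peroxisomes, by 0.36 (adjusted p = 0.0297). With 1 array left out Acot1 and Acot4 passed in 12 of 12 fits, Cidea in 3 and Pex11a in 2. None of the 4 passed without the arrays of high atrial markers (adjusted p = 0.0628, 0.0859, 0.20 and 0.14 for Acot1, Acot4, Cidea and Pex11a by limma) or without those of high mesothelial markers (0.093, 0.0834, 0.231 and 0.226). Pdk4 gave 0.69 (adjusted p = 0.18), Fgf21 1.0 (0.12) and Angptl4 0.18, and did not pass. None of the 17 targets with a promoter window held a PPAR response element, searched on both strands as AGGNCA repeated after 1 base, which occurs in 0.381% of windows.

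Cidea is also on the adipocyte list, where it was the 1 of 9 measured genes to pass. The summed signal of the 9 was 41.34 to 52.13 in CON VEH and 52.98 to 61.68 in mG4H VEH, most of it from Cidea. Without Cidea the sum of the other 8 was 4.74 to 7.71 and 5.67 to 7.67, and overlapped. The adipocyte-defining genes Adipoq, Plin1 and Lep differed by 0.45, 0.04 and 0.09, none past the threshold, and the part of fat cells in the Cidea result was not tested. In bulk tissue, fewer cells of a type and less RNA per cell cannot be told apart.

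The machinery of respiration showed no called gene. Fatty acid oxidation (26 genes, 17 higher and 9 lower, median 0.054), respiratory complex I (37 genes, median 0.017), complexes III to V (39, 0.016), mitochondrial ribosome (57, 0.014), and mitochondrial biogenesis and dynamics (28, 0.011) had 0 genes past the threshold in either limma fit. The same held for pyruvate oxidation (13 genes), glycogen (23), hexosamine, polyol and pentose phosphate genes (18), insulin signalling and GLUT4 trafficking (25), and sterol synthesis (20). It also held for antioxidant (27), stress response (28), contractile, calcium handling and fetal (32), matrix (37), immediate early (22), autophagy (24), cell division (23) and interferon genes (30). At an unadjusted p under 0.05 the counts over all genes were 811 in the 24-array fit and 1674 in the 12-array fit. A gene that missed the threshold is not shown to be unchanged.

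The plot of single hearts shows how 12 of the genes named above lie in all 4 groups.

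**Figure D4:**
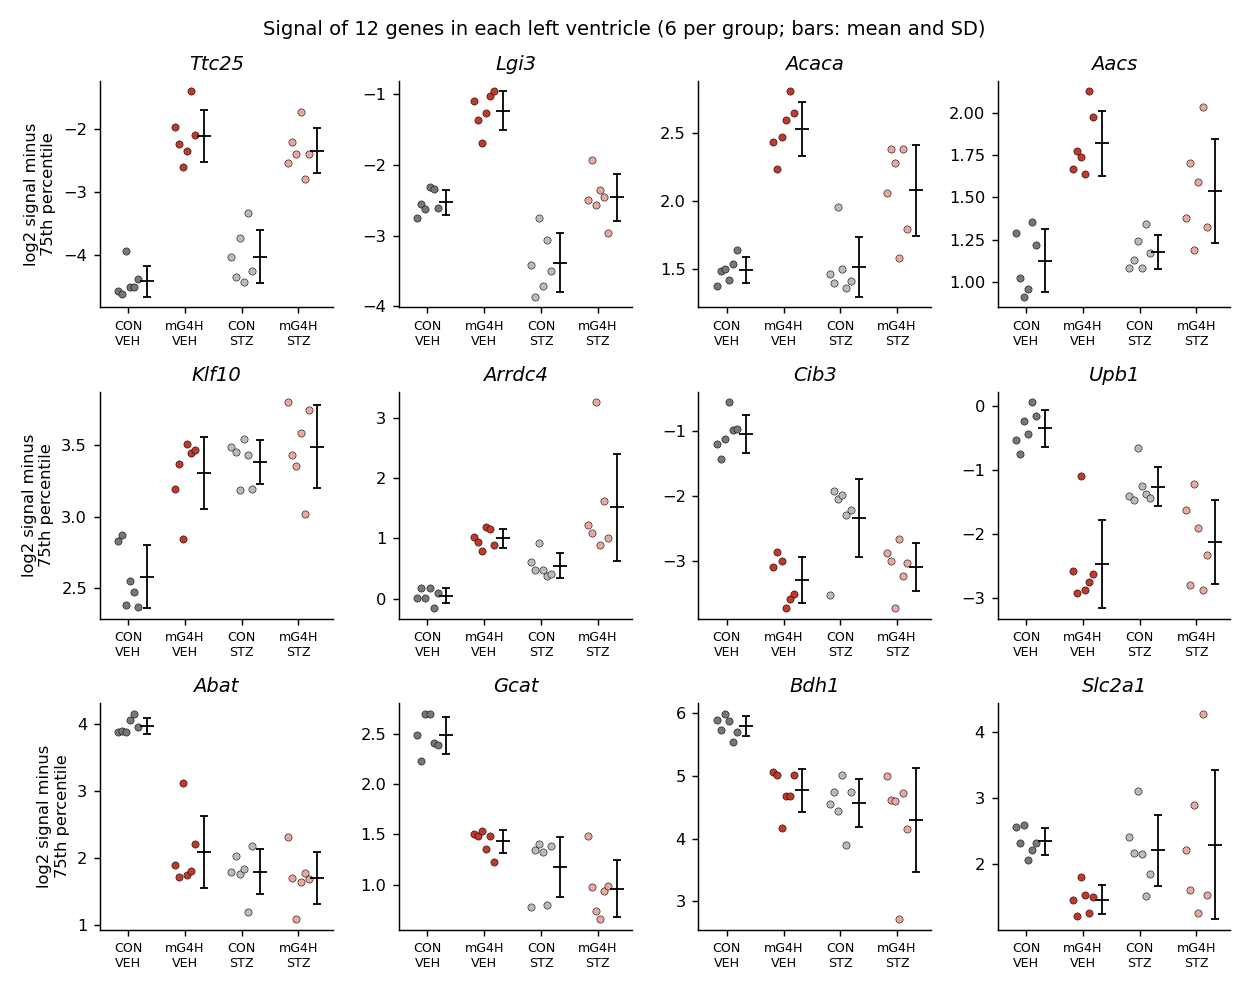
Log2 signal relative to the 75th percentile of the array (y axis) of 12 genes in the 4 groups (x axis), 1 point per mouse, with the mean and SD of 6 mice beside the points. The vehicle groups are apart for all 12 genes but Klf10, and in Abat mG4H VEH replicate 3 (3.12) lies above the other 5 transgenic hearts.

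The same genotype comparison in diabetic hearts (mG4H STZ against CON STZ, which shares no array with the vehicle comparison) gave 3 calls of 28237 in the 24-array limma fit (0.0106%), against 1003 genes at an unadjusted p under 0.05, and 0 calls in a fit of the 12 STZ arrays alone. All 3 were among the 23, namely Ttc25 (1.68, adjusted p = 0.00127), the chromosome 6 transcript (1.31) and LOC640020 (-1.11). Of the 23 genes 20 had the same direction in the diabetic hearts, as had 79 of the 100 (22 of 31 higher ones and 57 of 69 lower ones), against 52.1% of all genes. The differences were smaller there for 21 of the 23 and 92 of the 100. The median size, signed by the vehicle direction, was 0.84 in vehicle and 0.226 in diabetic hearts for the 23 genes, and 0.672 and 0.13 for the 100. The genes were chosen on the vehicle values, so their size there is fixed in part by the choice.

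Whether the transgene effect differed between diabetic and vehicle hearts was tested as an interaction over 24 arrays. It called 0 of 28237 genes, with 501 at an unadjusted p under 0.05 (1.77%). Abat came closest, with a difference of 1.78 (SE 0.30) between effects and adjusted p = 0.15, followed by Grin2c with 1.61 and adjusted p = 0.311. Abat was at 1.20, 1.82 and 2.18 in CON STZ and at 1.09, 1.70 and 2.31 in mG4H STZ. Its level in control hearts under STZ was thus below every CON VEH heart and within the range of the mG4H VEH hearts apart from 1 mouse. Abat passed in the interaction when mG4H VEH replicate 3 was left out (difference 1.99, adjusted p = 0.000988), when mG4H STZ replicate 3 was left out (1.91, adjusted p = 0.0426), and with slide as a block (1.84, adjusted p = 0.0431).

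The lists behaved differently in the diabetic hearts as a description. The 26 ketone and branched-chain genes had a median of -0.015, with 15 lower and 11 higher, and the 23 PPAR alpha targets had a median of -0.173, with 2 higher and 21 lower. Acot1, for example, was 0.63 lower in mG4H STZ than in CON STZ, and Slc2a1 gave 0.09. Arrdc4 gave 0.96, close to its vehicle value, with 1 mG4H STZ heart at 3.25 and an SD of 0.89 in that group. Acaca gave 0.57, and neither gene passed the threshold. Lgi3 gave 0.92, also not past it.

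**Figure D5:**
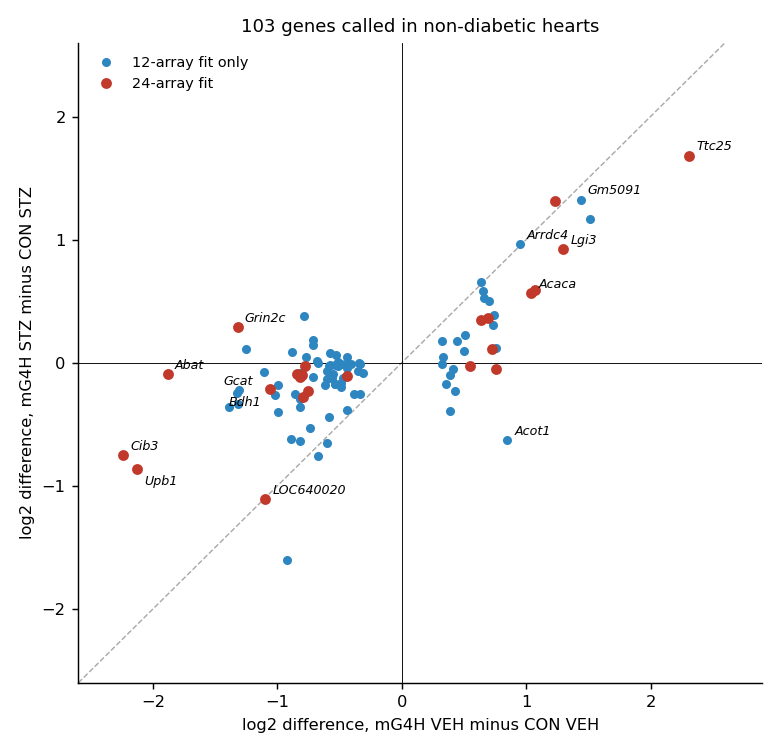
Log2 difference between mG4H and CON in vehicle hearts (x axis) and in diabetic hearts (y axis) for the 103 genes called in either vehicle fit, 1 point per gene. Most points lie nearer to 0 on the y axis than on the x axis. Ttc25 lies at 2.31 and 1.68 and LOC640020 at -1.1 and -1.11.

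Several of the called features lie near each other. By the mm9 coordinates of their probes, 37 named features had another within 2 Mb, including pairs with related roles or shared sequence. Acot1 and Acot4 both rose on chromosome 12, with probes at 85358561 and 85384821. Gcat (78867788) and Mpst (78244373) fell on chromosome 15, Upb1 (74902842) and Ddt (75234130) on chromosome 10, and Gstm7 and Gstm2 (107729218 and 107784622) on chromosome 3. Trim56 (137587218) and a transcript beside it (137581520) fell on chromosome 5, and they differed in the diabetic hearts by similar amounts, -0.66 and -0.75, not past the threshold. Both probes lie on the minus strand and may read 1 transcript, as may those of Dcxr and the transcript beside it on chromosome 11. The count of 37 takes them as separate features. In these groups the direction was shared, and Acadsb and Cpxm2 fell together on chromosome 7. Tspan4 rose near Scgb1c1, which fell, on the same chromosome. Opposite directions were also seen for Dbi (0.39) and Epb4.1l5 (-0.53) on chromosome 1. The same held for 4833439F03Rik (0.41) and Mmab (-0.47) on chromosome 5, and for E130112N10Rik (0.50) and Gnb3 (-0.81) on chromosome 6. The pairs not named here shared a direction. How many neighbours random positions would give was not tested. Which of these neighbours share a regulatory region was not tested.

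Body weight and blood glucose at 4 weeks are given in the labels without units. In control mice glucose was 140.7 ± 19.8 and in transgenic mice 139.3 ± 7.69 (SD, n = 6 each), a difference of -1.33 with p = 0.898 in a two-sided exact permutation test over 924 splits. Body weight was 30.85 ± 3.07 and 27.3 ± 2.25, a difference of -3.55 with exact permutation p = 0.0455, or 0.0909 after adjustment over the 2 measures, so it did not pass. The values overlapped, from 27.9 to 36.4 in CON VEH and from 25.5 to 31.2 in mG4H VEH. With body weight as a covariate 12 of the 23 and 14 of the 100 genes passed, and all of them were among the original calls. Ttc25, Cib3, Acaca, Gcat, Lgi3, Grin2c, Ccbl2 and Abat were among those that passed in both limma fits. Of the 8 ketone and branched-chain genes called over 12 arrays, Abat alone passed in that fit (adjusted p = 0.0459). The others gave 0.0662 (Ppm1k) to 0.298 (Oxct1). Over 12 arrays Arrdc4 (0.0208) and Gcdh (0.0151) passed, whereas Slc2a1 (0.109), Acot1 (0.0815), Pcx (0.109), Aacs (0.218) and Impa2 (0.16) did not. The part of body weight in the results was not tested beyond this.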

How the data were processed

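Per the labels, RNA of each left ventricle was made into Cy3-labelled cRNA for an Agilent array read in 1 colour. Agilent Feature Extraction and limma are the tools in the submitters' processing notes, without versions. The deposited files hold, per the file headers, each spot's processed intensity, corrected for background and not scaled between arrays, with probe positions on mm9. Probes were not assigned to exons.

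The log2 of the processed intensity was taken minus that of each array's 75th percentile over gene spots, and spots of a probe were averaged (55681 probes, 36413 gene names). Outlier-marked spots were left out (0.083% of values missing). Probes well above background on at least 6 of the 24 arrays were kept (39769), and the brightest stood for its gene (28237, of which 19250 have a current RefSeq symbol). Groups were compared with limma 3.58.1 in R 4.3.3 over all 24 arrays and over the 12 vehicle arrays, two-sided, without covariates, with Benjamini-Hochberg adjusted p under 0.05 over all genes. Files were read in Python 3.11.15 (pandas 2.3.3, numpy 2.4.6), and plots drawn with matplotlib 3.10.9. The fits were tested on simulated data.

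The named genes are the 12 highest and 12 lowest with a symbol and full detection in a vehicle group, up to 4 called members of each list, called features within 2 Mb of another, and Slc2a4. The comparison, the members and the gene lists were chosen with earlier results of these data known. Genes named from a list without passing, and the list of amino acid catabolism outside the branched chain, were chosen after values were seen. Some genes that meet the rule are not reported here.

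Alternatives covered scaling, background correction, filters, probe choice, blocks, covariates, array weights, thresholds and left-out arrays. Replicate numbers were not taken as pairs. Same-numbered mice of the 2 vehicle groups had correlations from -0.505 to 0.495 in their deviations from the group means. Only those numbered 3 shared a slide, so these correlations also reflect slides and cannot show whether the numbers pair the mice.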

Additional observations from a re-analysis of the deposited data

Results flagged for a closer look

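In 11 of 116 groups of 6 mice 1 value lay far from the other 5 by Dixon's criterion, which chance alone meets in about 1 of 20 groups. Of the 11 values 5 come from mG4H VEH replicate 3, an array of slide 4 with high mesothelial markers. They are Abat at 3.12, Upb1 at -1.09, Scgb1c1 at 2.86 and E130112N10Rik at -1.26, each the highest of its group, and Slc2a4 at 6.33, the lowest. CON VEH replicate 3, the other vehicle array of slide 4, was the highest of its group for Ttc25 (-3.93). CON VEH replicate 5 was the highest for Slc5a11 (-2.2) and Scgb1c1 (3.83) and the lowest for Lrrc4b (3.44). CON VEH replicate 6 was the highest for Gm5182 (1.63), and mG4H VEH replicate 5 the lowest for Dbi (6.63). The outlying values for Ttc25, Upb1, Abat and Scgb1c1 in the slide 4 arrays lie toward the other genotype. Within slide 4, which holds 1 mouse of each genotype, the difference was 1.33 for Ttc25 and -0.76 for Abat, against 2.27 to 2.6 and -2.38 to -1.84 within slides 1 to 3.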

How the results depend on the processing

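The number of genes called over 24 arrays (23) moved to 8 with median scaling, 46 with normexp background correction and quantile normalization, 45 with slide as a random block, 12 with body weight as a covariate, 212 with array weights, 100 with the vehicle arrays alone, 14 without slide 4, and 10 or 43 at adjusted p under 0.01 or 0.1. Leaving out each array gave 13 to 26. Over the 12 vehicle arrays (100) it moved to 11, 162 and 14 under the same scaling, background and weight settings, 37 at 0.01, and 48 to 135 without each array. Without the arrays of high atrial or mesothelial markers, settings chosen after seeing the data, the counts were 9 and 8 (24 arrays) and 18 and 28 (12 arrays). With slide as a block they were 30 and 69, of which 22 and 63 were among the 23 and the 100. Over 12 arrays with that block Bckdhb, Cidea, Pex11a, Dbi, Mpst, Gstm2, Slc5a11 and Gm5091 were among the genes that did not pass. Aacs and Pth1r passed with the block over 24 arrays but not over 12. The share of lower calls changed with scaling, from 13 of 23 to 4 of 8 (median scaling), 16 of 24 (percentile over probes above background everywhere) and 32 of 46 (normexp), and over 12 arrays to 6 of 11. Scaling moved the median of all genes by at most 0.0524, to 0.044 with median scaling. Replicate numbers were not taken as pairs, and 2 of 6 correlated best with their own number, though most same-numbered mice lay on different slides. With the replicate block 20 genes were called over 24 arrays and 0 over 12, where 1255 had an unadjusted p under 0.05 in limma. The interaction called 0 genes, 1 with slide as a block, and 0 to 1 without each array. The carried-over direction stayed at 20 of the genes in all 3 alternatives. Slc2a4 was -0.044 within slide 2 and -0.592 within slide 4. The glucose difference turned to 3.333, 2.533 and 0.3333 without CON VEH replicate 1, CON VEH replicate 2 or mG4H VEH replicate 3 (range -6.067 to 3.333). Body weight gave -4.33 without mG4H VEH replicate 3 (adjusted exact p 0.026, range -4.33 to -2.44). None of the named genes reversed in the alternatives run. Except where fewer arrays were used, the cause was not tested. Another Slc2a4 probe was not run, since the files hold 1. Signals near background limit the fold of dim probes, such as the further Ttc25 probe.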

Other observations

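The largest difference of any feature between the vehicle groups belongs to Gm4841, which did not pass. It was at -7.3, -3.83 and -3.23 (lowest, median, highest) in CON VEH and at -1.53, -0.68 and 1.65 in mG4H VEH, without overlap. The difference was 3.90 (SE 0.83; limma adjusted p = 0.0866 over 24 arrays and 0.0543 over 12), and its probe was above background in 5 of 6 control and 6 of 6 transgenic hearts. In the diabetic hearts the values were lower in both genotypes, with medians of -6.31 and -6.31, and the genotypes differed by 0.40. BC023105 was above background in 2 of 6 control and 6 of 6 transgenic hearts. It was at -6.63, -5.55 and -4.75 in CON VEH and at -4.35, -3.78 and 0.47 in mG4H VEH. The transgenic mean, which includes the heart at 0.47, was at least 4.25-fold higher (adjusted p = 0.712 and 0.334 by limma). That bound takes each control at no less than its array's background mark, and single transgenic hearts may lie below it. Both genes were singled out after their values were seen.

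In 28 genes CON VEH replicate 3 lay more than 4 log2 units below the lowest of the other 5 control arrays, against 0 to 2 genes in each of the other 11 vehicle arrays. Among them were Nos3, the endothelial nitric oxide synthase (-6.98, with 2.3 as the lowest of the other 11), the adhesion receptor Cxadr (-7.02 and 3.8), the oxygen sensor Egln1 (-7.01 and 0.86), Arsa (-6.88 and 0.71) and the spliceosomal gene Snrpf (-7.06 and 3.13). Their mean differences between genotypes were 2.07, 1.88, 1.75, 2.26 and 2.18 with that array and 0.36, 0.05, 0.3, 0.64 and 0.36 without it. None of the 28 genes was called in either limma fit.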
